A study of Mus musculus with 36 samples.

Results

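ATF4 is the transcription factor that cells make when amino acids run short, when unfolded protein builds up or when haem is lacking. The data described here are the read counts of Atf4 and of 34 other genes of its amino acid response in mouse cells with and without Zfp266, a gene for a KRAB zinc finger protein. These 35 genes, of 21442 in the count table, were chosen by name and by their knockout effects at day 7 of reprogramming and in pluripotent clones, where the signs were opposite. Knockout effects in those 3 settings, that is in day 7 cells, in induced pluripotent stem cells (iPSCs) and in embryonic stem cells (ESCs), are therefore given as a description without a test. All 35 genes were found once in the table, and every one had a false discovery rate (FDR) in each comparison below.

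The study sequenced messenger RNA from 36 libraries in 12 groups of 3, which are 6 stages in control (WT) and Zfp266 knockout (KO) cells. The question was how loss of Zfp266 alters expression before, during and after reprogramming of mouse embryonic fibroblasts (MEFs) to iPSCs. MEF WT and MEF KO were fibroblasts from E12.5 chimeric embryos, labelled strain 129, made by aggregating morulae with an ESC line that carried Cas9 in Rosa26, a doxycycline-inducible Myc, Klf4, Oct4 and Sox2 transgene with mOrange, and a Nanog-GFP reporter. No sort is described for the MEF libraries, so fibroblasts of the host embryo, without Cas9 or the transgene, may be among them. They received a lentivirus with a non-targeting guide RNA (WT) or a Zfp266 guide RNA (KO) and were harvested 96 h later. D3, D5 and D7 WT and KO were the same cells mixed with 129 MEFs that lacked the transgene, transduced 24 h before 300 ng/ml doxycycline and vitamin C were added, and sorted for mOrange at day 3, 5 or 7. Up to D7 and in iPSCs the control cells were thus made in the same way as the KO cells, with another guide RNA, and doxycycline was present from D3 to D7 in both. The KO libraries from MEFs to D7 were mixed populations of edited cells. iPS WT and iPS KO were 3 clones each, lifted at day 15 by Nanog-GFP, grown with puromycin and, for KO, genotyped. ESC WT was 3 samples of 1 parental line called Clone J, and ESC KO was 3 genotyped clones made from that line with a guide RNA plasmid that the clones had since lost, so in ESCs the effect of the KO and that of single-cell cloning cannot be told apart. The samples of the reprogramming course are called independent in the study, but whether those of a group came from separate cultures or embryos is not stated, so the p-values measure only the spread between these samples, which may be technical.

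As background, phosphorylation of eIF2 by stress kinases such as GCN2 and PERK slows translation in general and at the same time favours translation of the Atf4 messenger RNA. ATF4 pairs with C/EBP family proteins on a composite DNA element and turns on genes for amino acid uptake, for synthesis of asparagine, serine, glycine and proline, for mitochondrial one-carbon metabolism and for feedback on the stress itself. Because ATF4 is controlled largely through translation, the level of its messenger RNA need not follow its activity.

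Some of these genes have the core letters of the composite element close to their start, and the sequences are shown. The choice by counts did not use them, but the genes were also chosen by name as genes of the ATF4 response. The shares that follow describe that list and are not independent of the choice. In RefSeq promoter windows of GRCm38.p6, which run from 250 bases before to 50 after a start, the core TGATGNAA was looked for on both strands, and 30 of the 35 genes had a window. The core occurred in 9 of these 30 genes (30%), against 4.51% of all 27025 genes with a window and 3.97% of all 32851 windows. The narrower form TGATGCAA, which is part of the first motif, occurred in 7 genes (23.3%) against 1.03% of genes and 0.895% of windows. The matches are printed below on the strand of the gene with 11 bases on either side, and capitals mark the core or its reverse complement.
Nupr1 (chr7:126625562-126625591, minus strand): aaagggccagaTTGCATCAgacagggcttg
Trib3 (chr2:152344028-152344057, minus strand): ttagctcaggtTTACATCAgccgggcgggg
Chac1 (chr2:119351038-119351067, plus strand): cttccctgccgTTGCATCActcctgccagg
Herpud1 (chr8:94386306-94386335, plus strand): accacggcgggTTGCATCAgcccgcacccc
Vldlr (chr19:27216809-27216838, plus strand): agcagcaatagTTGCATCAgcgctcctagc
Asns (chr6:7693214-7693243, minus strand): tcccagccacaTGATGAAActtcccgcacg
Pycr1 (chr11:120643833-120643862, minus strand): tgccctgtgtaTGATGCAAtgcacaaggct
Slc7a11 first match (chr3:50443661-50443690, minus strand): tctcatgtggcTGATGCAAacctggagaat
Slc7a11 second match (chr3:50443642-50443671, minus strand): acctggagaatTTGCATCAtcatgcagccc
Slc1a4 (chr11:20332699-20332728, minus strand): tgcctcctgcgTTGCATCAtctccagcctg

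The Slc7a11 window held the narrow form once on each strand, starting at positions -66 and -47 from the start site. The Trib3 and Asns matches had the wider form only. The printed stretches of Nupr1, Vldlr and Asns lie wholly, and those of Trib3 and Slc1a4 partly, inside an annotated exon of the same gene in GENCODE. The stretches of Chac1, Herpud1, Pycr1 and Slc7a11 lie outside annotated exons. A match is a run of letters and not a measured binding site.

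Libraries held from 19224103 to 39610939 counts. Zfp266 (ENSMUSG00000060510, chromosome 9, 20495068 to 20521417 in GRCm38) was present at 1266 to 3293 normalised counts, which are counts divided by a size factor for each library. It was lower in iPS KO (log2FC -0.39, FDR 9.95e-06), higher in D3 KO (log2FC 0.32, FDR 0.00883) and without a call at the other 4 stages, and a guide-directed edit need not change a transcript count. Summed fibroblast markers (10 genes) were highest in MEFs and lowest in iPSCs and ESCs, and the 8 pluripotency markers ran the other way. MEF KO replicate 3 stood apart from the other MEF libraries, with a summed level of 5 epithelial markers of 413 against 1804 to 2929 normalised counts in the other 5. One of the iPS KO clones, replicate 1, had a summed level of 6 primitive endoderm markers of 1588, against 141 to 186 in the other 5 iPSC libraries.

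Averaged over the 35 genes, WT levels were low in fibroblasts, high from D3 to D7 and low again in pluripotent cells, although single genes such as Slc7a3, Cbs and Slc38a2 were highest in pluripotent cells. The mean log2 level of the genes, each taken relative to its own mean over the 36 libraries, was -0.59, -0.60 and -0.55 in MEF WT and -0.56, -0.58 and -0.63 in MEF KO. At day 3 it was 0.27, 0.43 and 0.25 in WT and 0.25, 0.26 and 0.22 in KO. At day 5 it was 0.37, 0.27 and 0.31 in WT and 0.31, 0.20 and 0.27 in KO. The WT and KO libraries overlapped at these 3 stages. At day 7 the WT libraries stood at 0.39, 0.37 and 0.41 and the KO libraries at -0.042, -0.036 and 0.034, so every KO library lay below the lowest WT library. In iPSCs the order was the opposite, with -0.31, -0.52 and -0.47 in WT and 0.20, -0.087 and 0.43 in KO. In ESCs the WT libraries stood at -0.50, -0.50 and -0.47 and the KO libraries at 0.038, 0.67 and 0.45. The separations at day 7 and in the clones are what the genes were chosen by.

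**Figure D1:**
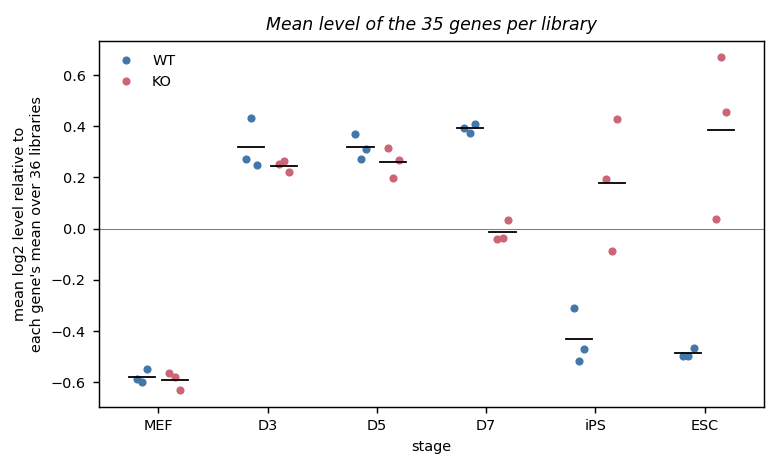
Mean log2 level of the 35 genes in each library, relative to the mean of each gene over the 36 libraries, by stage in WT (blue) and KO (red). Points are libraries and black lines are group means. KO lies below WT at D7 and above WT in iPSCs and ESCs, and the KO clones spread from -0.087 to 0.43 in iPSCs and from 0.038 to 0.67 in ESCs.

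Atf4 itself (ENSMUSG00000042406, chromosome 15, 80255184 to 80257541) stayed between 2376 and 7776 normalised counts over the 36 libraries. MEF WT had 2664, 2543 and 2650.1 normalised counts and MEF KO 2429, 2376 and 3568. At day 3 there were 3639, 3745 and 3285 in WT and 3876, 3505 and 3207 in KO. At day 5 there were 3329.9, 3446 and 3377 in WT and 3542, 2985 and 3524 in KO. WT and KO overlapped at all 3 of these stages. At day 7 WT had 3614, 3974 and 3856 and KO 2817, 3184 and 3570.3. In iPSCs WT had 3344, 3201 and 3776 and KO 4136, 4037 and 5857. In ESCs WT had 3998, 3730.2 and 3618 and KO 4622, 7776 and 6359. At day 7 every KO library was below every WT library, and in iPSCs and ESCs every KO library was above. The log2 fold change of KO over WT (log2FC) was -0.26 at day 7, 0.44 in iPSCs and 0.73 in ESCs.

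Before and early in reprogramming few of these genes were called changed between KO and WT. A gene is called changed at a DESeq2 Benjamini-Hochberg FDR under 0.05 over all genes tested, with no limit on the fold. In MEFs 0 of 35 genes were called higher, against 0.0645% of all genes, and 0 lower, against 0.0215%. With shares this low, a count of 0 does not set these genes apart from all genes. DESeq2 gave 4 genes an unadjusted p under 0.05, and edgeR called 0 as well. The median log2FC was 0.0034 over the 35 genes and -0.0098 over all genes. The genes with the largest differences were Cth and Ddit3. Cth, which encodes the enzyme that releases cysteine from cystathionine, had 157, 188 and 183 in WT and 163, 214 and 401 in KO (log2FC 0.56, SE 0.27, FDR 0.496). Ddit3, which encodes the stress factor CHOP, had 259, 335 and 291 in WT and 340.1, 300.5 and 532 in KO (log2FC 0.41, SE 0.19, FDR 0.489). In both genes the WT and KO libraries overlapped and the highest value was that of MEF KO replicate 3, the library that stood apart. The same library had 1020.2 normalised counts of Slc7a5, the large neutral amino acid transporter, against 2894 to 3053 in the other 5 MEF libraries.

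At day 3, 0 genes were called higher (background 0.374%) and 1 was called lower (background 0.119%). This was Pycr1 (ENSMUSG00000025140, chromosome 11, 120635712 to 120643769), which encodes a mitochondrial enzyme that makes proline. It had 312, 356 and 311 normalised counts in WT and 189.6, 159 and 165 in KO (log2FC -0.93, SE 0.25, FDR 0.039), and the highest KO value was below the lowest WT value. The call was lost with edgeR and in each of the 6 fits without 1 library, with FDR up to 0.386. At day 5, 1 gene was called higher (background 4.72%) and 2 were called lower (background 2.43%), and the median log2FC was -0.088 over the 35 genes against -0.012 over all genes. Pycr1 was again lower in KO, at 153, 110.2 and 166 against 279.6, 227 and 231 in WT (log2FC -0.78, SE 0.25, FDR 0.0316). Stc2, which encodes the secreted glycoprotein stanniocalcin 2, was lower in KO, with 659, 645 and 796 in WT and 521, 419.7 and 459 in KO (log2FC -0.59, SE 0.16, FDR 0.00744). Cth was higher in KO, with 1105, 1471 and 1189 in WT and 1996, 2463 and 2052 in KO (log2FC 0.79, SE 0.26, FDR 0.0354). In each of the 3 genes the WT and KO libraries did not overlap. With edgeR 1 of the 3 calls was left, that of Stc2, and without D5 WT replicate 3 or D5 KO replicate 2 none was left. Cth was called only without D5 WT replicate 2 and Pycr1 only without D5 KO replicate 3 among the fits that left out 1 library. At day 5 all 8 pluripotency markers were called higher in KO, with a summed level of 1458, 1712 and 1592 in WT and 3248, 4941 and 3924 in KO, and 1 of 10 fibroblast markers was called lower; their part in the 3 calls was not tested. The effect on Pycr1 differed from that in MEFs by -1.04 at day 3 (SE 0.35, DESeq2 interaction FDR 0.338) and by -0.89 at day 5 (SE 0.35, FDR 0.136), neither past the threshold. Transcripts of Pycr1 share stretches of 77 to 80 bases with transcripts of other genes at 97% identity or more, so reads from these stretches may not be assigned to it with certainty.

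**Figure D2:**
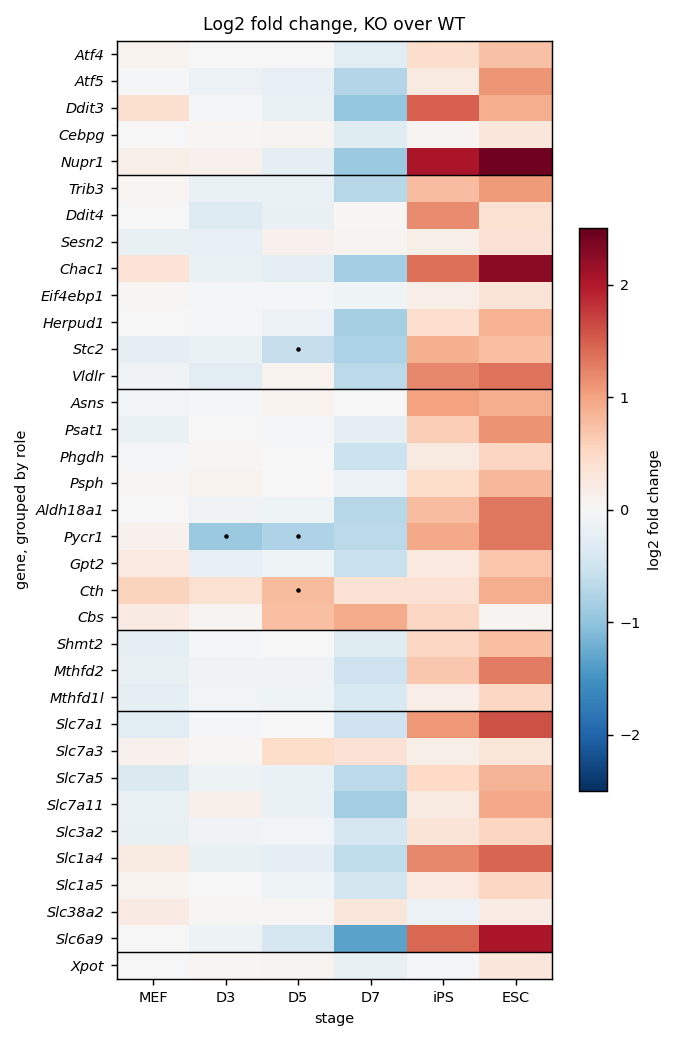
Log2 fold change of KO over WT for the 35 genes (rows, in 6 groups by role separated by lines) at the 6 stages (columns). Red is higher and blue lower in KO, and a dot marks a DESeq2 FDR under 0.05 in MEFs, at D3 and at D5, where there are 0, 1 and 3 dots. The columns for D7, iPSCs and ESCs carry no dots since the genes were chosen by these effects.

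At day 7 most of the 35 genes had lower counts in KO cells. Of the 35 genes 22 passed the FDR threshold with lower counts in KO (background 15.7%) and 2 with higher counts (background 13.1%). The median log2FC was -0.51 over the 35 genes and -0.044 over all genes. In 27 genes the highest KO library was below the lowest WT library, against 26.2% of all genes. Nothing is read from these counts, since this contrast chose the genes. In a bulk library, fewer cells with an active response and less RNA of it in every cell cannot be told apart.

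By role, 4 of 5 transcription factors, 5 of 8 stress effectors, 4 of 9 amino acid synthesis genes, 2 of 3 mitochondrial one-carbon genes and 7 of 9 transporters passed the threshold with lower counts at day 7. The factor gene that did not pass was Atf4. Ddit3 had 287, 326 and 343 normalised counts in WT and 184, 138 and 169 in KO (log2FC -0.96, SE 0.20). Nupr1 (ENSMUSG00000030717, chromosome 7, 126623249 to 126630861), which encodes a small stress-induced chromatin protein, had 1999, 2579.7 and 2916 in WT and 1151, 1256 and 1532 in KO (log2FC -0.93, SE 0.24). Chac1, which encodes an enzyme that breaks down glutathione, had 119.7, 129.9 and 138 in WT and 74.3, 71.8 and 69.0 in KO (log2FC -0.85, SE 0.34). In all 3 genes the KO libraries lay below the WT libraries. Slc6a9 (ENSMUSG00000028542, chromosome 4, 117834506 to 117875198), which encodes the glycine transporter GlyT1, had the largest difference, with 297, 268 and 356 in WT and 138, 104 and 125 in KO (log2FC -1.33, SE 0.26). Slc7a11, which encodes the cystine and glutamate exchanger xCT, had 108, 147 and 117 in WT and 56.2, 63.9 and 82.6 in KO (log2FC -0.87, SE 0.32). These groups did not overlap either. Chac1 did not pass the threshold with edgeR or in any fit without 1 library, and Slc7a11 did not pass in 4 such fits. Among the other genes, Slc1a4 and Pycr1 did not pass at day 7 in 7 and 6 of the alternative fits, edgeR among them. Slc7a5 and Vldlr did not pass in 4 and 3 of these fits, and Gpt2, Mthfd1l and Slc38a2 in 1 each. Of the exon bases of Slc6a9, 27.8% overlap Ccdc24 on the opposite strand, and those of Ddit3 overlap Mars in 3.97%, so their counts are uncertain if the counting did not use the strand, which the sources do not state. A second annotated Ddit3 entry on the same strand, not in the count table, covers 6.13% of the Ddit3 exon bases. Reads from that stretch may be uncertain with either way of counting.

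A few genes had higher counts in KO at day 7. Cbs, which encodes the enzyme that joins homocysteine and serine to form cystathionine, had 27.4, 32.2 and 38.1 in WT and 60.2, 60.4 and 66.3 in KO (log2FC 0.94, SE 0.27). Cth, the next enzyme of that branch, had 2458, 2437 and 2416 in WT and 3454, 3122 and 2785 in KO (log2FC 0.36, SE 0.26). In both genes every KO library was above the highest WT library. Slc38a2, which encodes a transporter of small neutral amino acids, had 6505, 6290.1 and 6275 in WT and 7916, 7996 and 7336 in KO (log2FC 0.29, SE 0.094), and its groups did not overlap. Asns, which encodes asparagine synthetase and is the textbook target of ATF4, had 4819.9, 4552 and 4678 in WT and 4622, 4927 and 4467 in KO, with overlapping groups.

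The cells also differed in other ways at day 7. The summed level of 10 fibroblast markers was 37236, 34918 and 25019 normalised counts in D7 WT and 23359.6, 13516 and 8146 in D7 KO, and 6 of the 10 markers were called lower in KO. The summed level of 8 pluripotency markers was 7306, 11280.4 and 8516 in WT and 29590.1, 37499.7 and 30036 in KO, with all 8 called higher. Myc, Klf4 and Sox2 of the transgene were also lower in KO, counting transgene and endogenous reads together. Myc, which also drives many biosynthetic genes, had 19366, 16649 and 20383 in WT and 10525, 10488 and 14139.5 in KO (log2FC -0.68, DESeq2 FDR 0.00216), and Klf4 and Sox2 had log2FC -0.68 and -0.51, while Pou5f1 had -0.035. The part of these differences in the levels of the 35 genes was not tested.

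**Figure D3:**
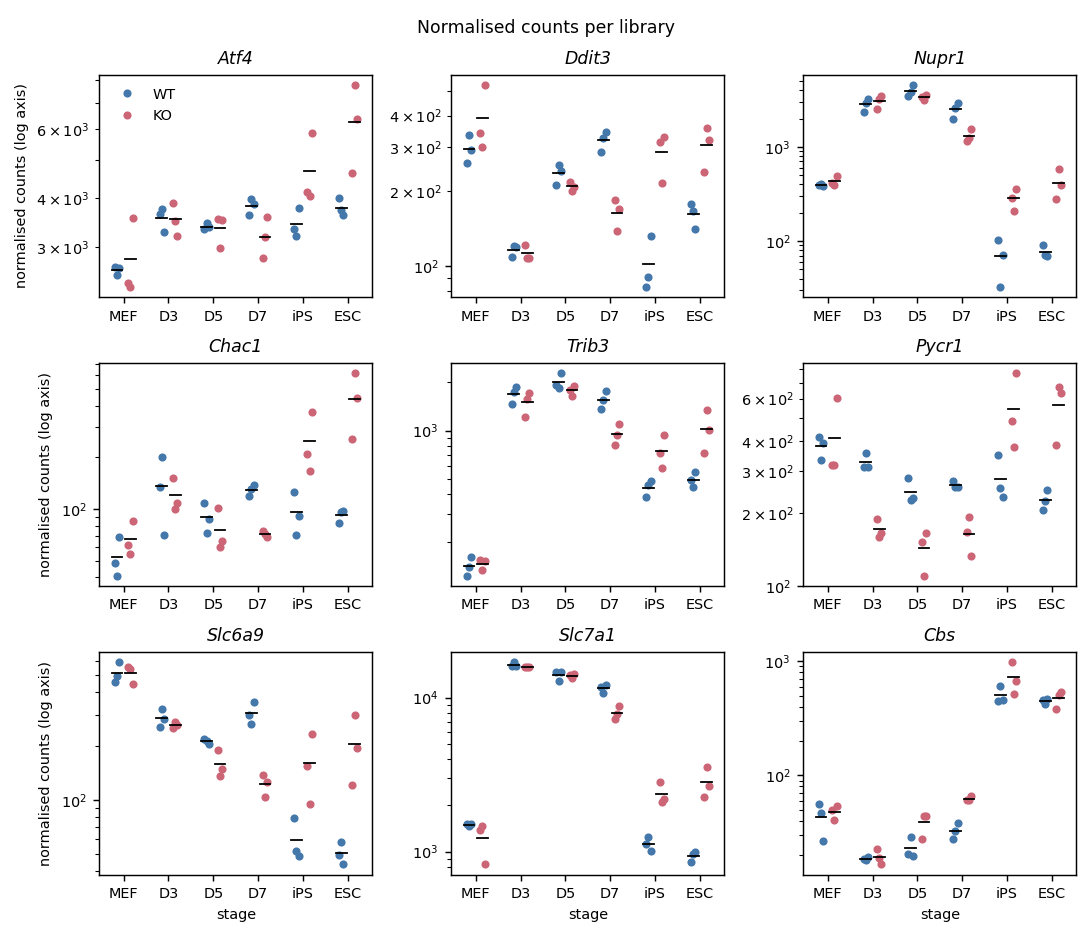
Normalised counts (log axis) of 9 of the genes in every library by stage, in WT (blue) and KO (red). Points are libraries and black lines are group means. Ddit3, Nupr1, Chac1, Trib3, Pycr1, Slc6a9 and Slc7a1 lie lower in KO at D7 and higher in KO in iPSCs and ESCs, and Cbs lies higher in KO at D7.

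In the pluripotent clones most of the 35 genes had higher counts in KO. In iPSCs 19 of 35 genes passed the threshold with higher counts in KO (background 9.72%) and 0 with lower counts (background 6.63%). The median log2FC was 0.50 over the 35 genes against 0.024 over all genes, and in 17 genes the lowest KO clone was above the highest WT clone (background 11%). Nothing is read from these counts, for the same reason as at day 7. Nupr1 had 104, 32.7 and 70.5 normalised counts in iPS WT and 289.5, 209 and 355 in iPS KO (log2FC 2.04, SE 0.26). Ddit3 had 82.9, 90.4 and 133 in WT and 312, 216 and 328 in KO (log2FC 1.49, SE 0.20). Slc6a9 had 78.6, 51.7 and 48.2 in WT and 156, 94.6 and 235 in KO (log2FC 1.44, SE 0.27). In these 3 genes no WT clone reached the lowest KO clone. Chac1 had 125, 70.6 and 90.9 in WT and 209.6, 168 and 369.7 in KO (log2FC 1.38, SE 0.33). Vldlr, which encodes a lipoprotein receptor, had 84.6, 56.8 and 61.2 in WT and 157, 126 and 187 in KO (log2FC 1.21, SE 0.25). Slc1a4, which encodes a transporter of alanine, serine and cysteine, had 389, 310.0 and 425 in WT and 741, 416 and 1436 in KO (log2FC 1.21, SE 0.26). For Slc1a4 the lowest KO clone, replicate 2, was below the highest WT clone. Without iPS KO replicate 1, the clone with more primitive endoderm RNA, 19 genes passed with higher counts, and without iPS KO replicate 3 there were 16 with higher and 2 with lower counts. The pluripotency markers summed to 109612, 119806 and 126504 in iPS WT and 127373, 123493 and 133018 in iPS KO, with 0 of 8 called. Myc was lower in iPS KO (log2FC -0.76, DESeq2 FDR 0.00144), and its part in the levels of the 35 genes was not tested.

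In ESCs 30 of the 35 genes passed with higher counts in KO (background 5.69%) and 0 with lower counts (background 4.17%). All 35 log2FC values were positive, with a median of 0.85 against 0 over all genes, and in 33 genes the lowest KO clone was above the highest WT sample (background 17.6%). This contrast also chose the genes. Nupr1 had 90.4, 71.9 and 69.5 normalised counts in WT and 280.1, 577 and 389 in KO (log2FC 2.43, SE 0.26). Chac1 had 82.3, 96.2 and 97.3 in WT and 257, 616 and 441 in KO (log2FC 2.25, SE 0.33). Slc6a9 had 49.2, 57.7 and 43.4 in WT and 121, 299.8 and 196 in KO (log2FC 2.04, SE 0.27). The lowest KO clone was above the highest WT sample in each. Slc7a1 (ENSMUSG00000041313, chromosome 5, 148327410 to 148399904), which encodes the arginine and lysine transporter CAT1, had 861, 964 and 990.2 in WT and 2260.3, 3559.8 and 2656 in KO (log2FC 1.59, SE 0.15). Slc1a4 had 445, 418 and 439 in WT and 762, 1521 and 1265 in KO (log2FC 1.45, SE 0.26). Vldlr had 67.3, 52.6 and 63.4 in WT and 88.9, 189 and 191 in KO (log2FC 1.35, SE 0.25). These 3 were likewise separate. By role, 5 of 5 transcription factors, 7 of 8 stress effectors, 8 of 9 amino acid synthesis genes, 3 of 3 one-carbon genes, 6 of 9 transporters and Xpot, which encodes the tRNA exporter exportin-t, passed with higher counts. The fibroblast markers summed to 332, 316 and 359.6 in WT and 337, 306 and 301 in KO, and the pluripotency markers to 135666, 135579 and 129940.0 in WT and 142522, 145964 and 145695 in KO, with 0 of 8 called.

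The KO clones were not alike. The highest of the 3 ESC KO values fell on replicate 2 in 31 of 35 genes and on replicate 1 in 0, and the lowest fell on replicate 1 in 32. Over the 18425 genes with a mean of at least 10 normalised counts, replicate 2 was highest in 31.3% and replicate 1 lowest in 39.9%. The median log2 difference of the 35 genes from the WT mean was 0.44, 1.09 and 0.85 in ESC KO replicates 1, 2 and 3. In iPS KO it was 0.52, 0.40 and 0.72, with the highest value in replicate 3 for 23 genes and the lowest in replicate 2 for 29. At day 7, where the KO libraries were populations, it was -0.49, -0.50 and -0.39. Without ESC KO replicate 2 the number of genes that passed in ESCs went from 30 to 23. The order of clones is shared by genes of the same library and is not a set of independent observations.

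**Figure D4:**
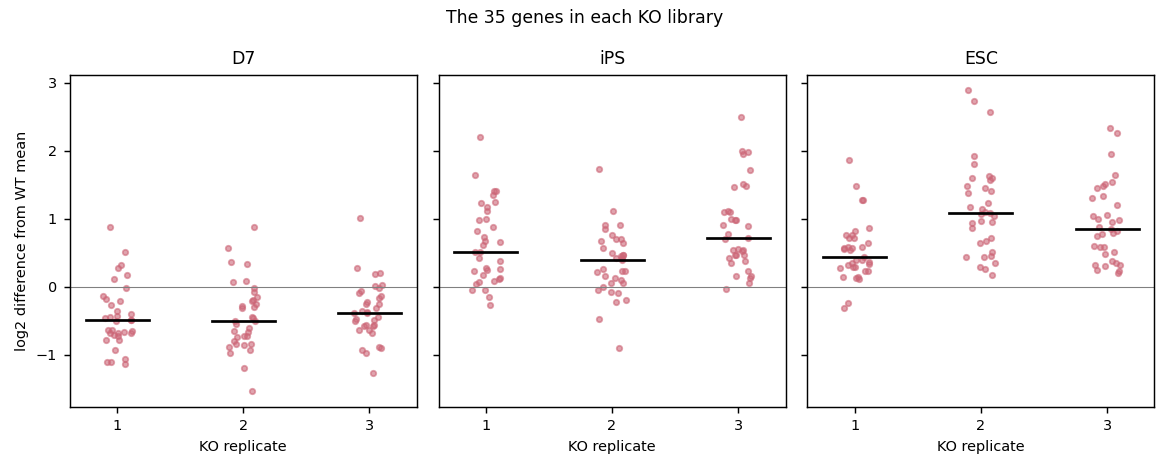
Log2 difference of each of the 35 genes (points) in each KO library from the mean of the 3 WT libraries of the same stage, at D7, in iPSCs and in ESCs. Black lines are medians over the genes, which lie between -0.50 and -0.39 at D7 and between 0.44 and 1.09 in ESCs.

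The values of single enzymes and transporters show how the differences were spread over the pathways, for genes picked by their roles with their values known. Asns had, in iPSCs, 3726, 4055 and 2712 in WT and 8162, 5511 and 7375 in KO (log2FC 1.00, SE 0.15). In ESCs Asns had 3283, 3378 and 3314 in WT and 4515, 7503 and 6647 in KO (log2FC 0.90, SE 0.15). Both sets were separate, whereas at day 7 Asns overlapped between WT and KO. Psat1, the aminotransferase of serine synthesis, had day 7 values of 9020.1, 8670.5 and 8725 in WT and 7299, 7707 and 7364 in KO (log2FC -0.24, SE 0.14). In ESCs Psat1 had 4406, 4184 and 3992 in WT and 6879.8, 11098 and 9585 in KO (log2FC 1.13, SE 0.14). In both settings the WT and KO libraries of Psat1 were separate. Mthfd2, which oxidises methylene-tetrahydrofolate in mitochondria, had day 7 values of 3027, 2780.1 and 2634 in WT and 1794, 1982 and 2139 in KO (log2FC -0.51, SE 0.14). In iPSCs it had 2034, 1435 and 1487 in WT and 2568, 2246 and 3054 in KO (log2FC 0.67, SE 0.14). In ESCs it had 1465, 1389.8 and 1539 in WT and 2658, 4424 and 3621 in KO (log2FC 1.28, SE 0.14). The Mthfd2 groups did not overlap in any of the 3 settings. Aldh18a1, which opens proline synthesis from glutamate, had day 7 values of 5788, 5114 and 5801 in WT and 3392, 3179 and 3564 in KO (log2FC -0.72, SE 0.16). In iPSCs Aldh18a1 had 1194, 783 and 842 in WT and 1417, 1371 and 1996 in KO (log2FC 0.76, SE 0.16). In ESCs Aldh18a1 had 824, 1004 and 905 in WT and 1540.4, 2747 and 2494 in KO (log2FC 1.31, SE 0.16). Pycr1, which closes the same route, was the only gene called lower in KO at both day 3 and day 5, and both calls were lost with edgeR. At day 7 Pycr1 had 274, 257 and 257 in WT and 168, 193 and 133 in KO (log2FC -0.68, SE 0.25). In iPSCs Pycr1 had 349, 256 and 233 in WT and 483, 376 and 764 in KO (log2FC 0.95, SE 0.24). In ESCs Pycr1 had 207, 225 and 250.2 in WT and 386, 671 and 635 in KO (log2FC 1.31, SE 0.24). Its WT and KO libraries were separate in each of these 3 settings.

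Among the feedback and transport genes, Trib3, whose protein restrains ATF4 and CHOP, had day 7 values of 1365, 1556 and 1768 in WT and 817, 939 and 1093 in KO (log2FC -0.72, SE 0.18). In iPSCs Trib3 had 383, 456 and 481 in WT and 726, 587 and 932 in KO (log2FC 0.77, SE 0.18). In ESCs Trib3 had 488, 440.3 and 547 in WT and 724, 1345 and 1012 in KO (log2FC 1.06, SE 0.18). The Trib3 groups were separate in each setting. Slc7a1 at day 7 had 11682, 10655 and 12116 in WT and 7216, 7876 and 8818 in KO (log2FC -0.53, SE 0.15). In iPSCs Slc7a1 had 1113, 1245 and 1008 in WT and 2836, 2099.7 and 2194 in KO (log2FC 1.08, SE 0.15). These groups of Slc7a1 did not overlap. Slc7a5, whose protein pairs with that of Slc3a2 to import leucine, had day 7 values of 8175, 6917 and 7733 in WT and 4714, 4804 and 5081 in KO (log2FC -0.64, SE 0.23). In iPSCs Slc7a5 had 6274, 3494 and 3889 in WT and 5918, 7133 and 6299 in KO, with overlapping groups. In ESCs Slc7a5 had 3348, 3494 and 4034 in WT and 5418, 7721 and 6507 in KO (log2FC 0.85, SE 0.23). Ddit4 had, in iPSCs, 1029, 1006 and 1751 in WT and 3232, 1897 and 3472 in KO (log2FC 1.18, SE 0.16). The lowest KO clone of Ddit4 was above the highest WT clone.

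Gene by gene, 28 of the 35 genes had a negative log2FC at day 7 and positive ones in both iPSCs and ESCs, as did 17.9% of all genes, and this is the pattern the genes were chosen by. Both figures count signs of any size. Of the 28 genes, 21 passed the FDR threshold at day 7 and in ESCs, and 13 of them also passed in iPSCs. The share of all genes that did so was not computed. Vldlr and Slc1a4, whose values per library were given above for the clones only, had log2FC -0.67 and -0.63 at day 7. The values that follow are log2FC at day 7, in iPSCs and in ESCs. They are for genes of the pattern with no values per library above at any of these stages. Of the factor genes, Atf5 had -0.73, 0.22 and 1.10 and Cebpg, whose protein pairs with ATF4, had -0.30, 0.061 and 0.27. Herpud1, which encodes a protein of ER-associated degradation, had -0.83, 0.41 and 0.87, Stc2 had -0.79, 0.88 and 0.76, and Eif4ebp1, which encodes a repressor of cap-dependent translation, had -0.12, 0.16 and 0.32. In serine synthesis, Phgdh had -0.53, 0.23 and 0.53 and Psph had -0.14, 0.46 and 0.83. All 7 of these genes were positive in ESCs. Gpt2, which encodes an alanine aminotransferase, had -0.57, 0.25 and 0.70. Shmt2, which encodes a mitochondrial enzyme that turns serine into glycine, had -0.31, 0.52 and 0.76, and the formate-producing Mthfd1l had -0.38, 0.18 and 0.52. Slc3a2, which encodes the heavy chain that carries several amino acid exchangers to the membrane, had -0.42, 0.32 and 0.53, and the glutamine transporter gene Slc1a5 had -0.46, 0.24 and 0.52. The genes outside the pattern were Ddit4 and Sesn2, which encode inhibitors of mTORC1 signalling, Cth, Cbs, Slc7a3, Slc38a2 and Xpot. Ddit4 had log2FC 0.051 at day 7 and 1.18 in iPSCs, Sesn2 0.072 and 0.14, and Slc7a3, which encodes another arginine and lysine transporter, 0.36 and 0.14. Xpot had -0.18 at day 7 and -0.028 in iPSCs. Slc38a2, higher in KO at day 7 (0.29), had a lower mean in iPS KO than in iPS WT. Its iPSC values were 14589.5, 12095 and 14897 in WT and 11390, 11831 and 14280 in KO, with overlapping groups. The iPSC groups of Cth and Cbs overlapped too. In ESCs Slc38a2, Cth and Cbs had log2FC 0.19, 0.91 and 0.072. Counts of Phgdh are uncertain because transcripts of Gm7901, Gm9347 and Gm6756, also in the table, match it at 97.2% to 99.2% over 393 to 1608 bases, and those of Xpot because Gm7389 matches it at 98.8% over 378 bases. Slc3a2 shares stretches of 93 to 173 bases with many transcripts. Psph, Atf5 and Shmt2 overlap exons on the opposite strand in 10.4%, 4.11% and 1.03% of their exon bases.

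The 9 genes with the promoter core had median log2FC values of -0.72 (day 7), 1.00 (iPSCs) and 1.31 (ESCs), and those of the 21 genes with a window and no match were -0.38, 0.46 and 0.73. The genes were chosen by their effects at these 3 stages, so nothing is read from the gap. At day 3, which the choice did not use, the medians were -0.17 with the core and -0.057 without. The genes with the core ranged from -0.93 to 0.13 there. All these medians are descriptions over lists chosen with the values known. Among the genes with the core, Asns had a log2FC of -0.0036 at day 7, and the lowest value at day 3 was that of Pycr1.

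In WT cells the start of reprogramming moved nearly all of these genes. From MEFs to day 3, 24 of 35 genes rose (background 33.8%) and 9 fell (background 37.1%), and the median log2FC was 1.18 over the 35 genes against -0.0054 over all genes. The D3 cells differ from MEFs in medium, doxycycline, transgene and sort at once, and these cannot be told apart. All 3 mitochondrial one-carbon genes rose, as did 7 of 9 amino acid synthesis genes, 6 of 9 transporters, 4 of 8 stress effectors, 3 of 5 transcription factors and Xpot. The examples that follow had the largest changes in either direction and were picked after the values were seen. Slc7a3 had 26.1, 37.9 and 40.3 normalised counts in MEF WT and 678, 660.0 and 499 in D3 WT (log2FC 4.11, SE 0.24, FDR 7.35e-65). Trib3, which encodes a feedback inhibitor of ATF4 and CHOP, had 123, 139 and 162 in MEF WT and 1462, 1738 and 1864 in D3 WT (log2FC 3.56, SE 0.20, FDR 1.27e-71). Vldlr fell from 1189.6, 1309 and 1356 in MEF WT to a mean of 43.3 (SD 11.9, n = 3) in D3 WT (log2FC -4.89, SE 0.25, FDR 6.72e-82). In each of these the groups were far apart. Among the other genes that rose were Slc7a1 (log2FC 3.45), the glutamine transporter gene Slc1a5 (3.42), Mthfd2 (2.88) and Asns (2.06), and among those that fell were Ddit4 (-1.78), Sesn2 (-1.66) and Ddit3 (-1.34). Atf4 rose by a log2FC of 0.44 (FDR 0.00726). The calls of Herpud1 and Slc7a11 at this step were lost without MEF WT replicate 1 or D3 WT replicate 3, and that of Herpud1 also without D3 WT replicate 2.

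**Figure D5:**
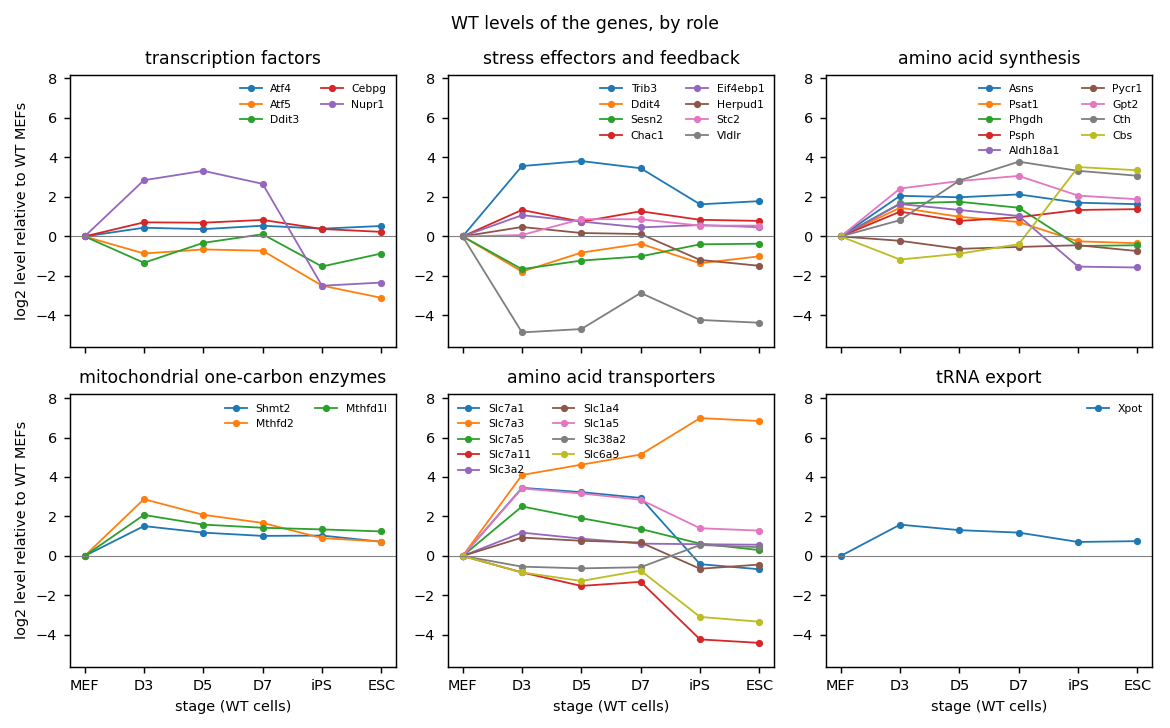
Log2 level of each gene in WT cells relative to WT MEFs, from group means of normalised counts plus 1, at the 6 stages and in 6 panels by role. Most synthesis, one-carbon and transporter genes lie above 0 at D3, while Vldlr lies below -4 from D3 in all stages but D7, and Slc7a3 climbs at every stage to iPSCs.

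Fewer of the genes moved at the later steps. From day 3 to day 5 in WT, 6 genes rose (background 12.6%) and 9 fell (background 13%), and all 3 one-carbon genes were among those that fell, with log2FC from -0.79 for Mthfd2 to -0.33 for Shmt2, whose call was lost with edgeR and without D3 WT replicate 2 or 3 or D5 WT replicate 2 or 3. Cth rose from 314, 342 and 281 at day 3 to 1105, 1471 and 1189 at day 5 (log2FC 2.01, SE 0.26, FDR 1.34e-12). Ddit3 rose from 109, 121 and 119 to 212, 254 and 240.5 (log2FC 1.02, SE 0.20, FDR 1.02e-05), and Ddit4, Stc2, Slc7a3 and Sesn2 rose too. The call was lost for Slc7a3 without D3 WT replicate 3 or D5 WT replicate 1 and for Sesn2 without D5 WT replicate 1. From day 5 to day 7, 4 genes rose (background 13.8%) and 4 fell (background 10.9%), which is near the share of all genes. Vldlr rose from 42.7, 45.4 and 58.3 to 141, 234 and 153 (log2FC 1.85, SE 0.26, FDR 5.11e-11), and Cth, Slc7a3 and Ddit4 rose with log2FC 0.96, 0.51 and 0.45. Nupr1, Mthfd2, Eif4ebp1 and Slc3a2 fell, with log2FC -0.66, -0.41, -0.30 and -0.25. Vldlr and Cth were called in every fit without 1 library, and each of the other 6 genes lost its call in at least 2 of these 6 fits. These steps share the WT libraries of day 5 with each other and those of each day with the KO comparisons of that day. The day 5 to day 7 count went from 8 to 2 without D7 WT replicate 2, to 4 without D5 WT replicate 1 and to 5 without D5 WT replicate 3 or D7 WT replicate 1, and it was 18 with only the libraries of the groups compared, where the day 3 to day 5 count was 25.

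Per kilobase of merged exon, Phgdh, the enzyme that opens serine synthesis, had the highest mean level of the 35 genes in D3, D5 and D7 WT, at 4891, 5195 and 4215 normalised counts per kilobase. Eif4ebp1 was highest in iPS WT at 2005 and in ESC WT at 1863, Asns in iPS KO at 2565 and Atf4 in ESC KO at 2652. Cbs was lowest in MEF, D3, D5 and D7 WT, at 2.48 in D3 WT, and Slc7a11 was lowest in iPSCs and ESCs of both genotypes, at 0.981 in ESC WT. Slc7a11 had 14.1, 12.1 and 14.8 normalised counts in ESC WT and 10.8, 33.1 and 35.9 in ESC KO.

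Other genes near this response, in lists that share no gene with the 35, were counted in the same fits. The shares of all genes called lower and higher were 15.7% and 13.1% at day 7, 6.63% and 9.72% in iPSCs, and 4.17% and 5.69% in ESCs, and the counts below are to be read beside them. Of 15 further ATF4 or CHOP targets, 6 were lower and 2 higher in KO at day 7 (median log2FC -0.32), 6 were higher and 0 lower in iPSCs (median 0.24), and 5 were higher and 0 lower in ESCs (median 0.26). Atf3, an early stress factor gene, had log2FC -1.18 at day 7 and 1.23 in iPSCs. Adm2 and Pck2, which encode a peptide hormone and mitochondrial PEP carboxykinase, had log2FC 2.19 and 1.69 in ESCs. At these stages Atf3, Adm2 and Pck2 lay well beyond the medians of the list and do not stand for its other genes. Of 20 cytosolic aminoacyl-tRNA synthetases, which charge tRNAs with amino acids, 9 were lower and 0 higher at day 7, 10 were higher and 2 lower in iPSCs, and 12 were higher and 0 lower in ESCs, with median log2FC -0.21, 0.24 and 0.51. In MEFs and at day 3, 0 genes of either list passed the threshold, as did 0 at day 5.

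Lists of neighbouring pathways were counted in the same way. Of 17 ER chaperone and ER quality control genes, which answer to ATF6 and XBP1, 8 were lower and 0 higher at day 7 (median log2FC -0.17), 4 lower and 2 higher in iPSCs (median -0.043), and 2 lower and 1 higher in ESCs (median -0.019). The main ER chaperone gene Hspa5 had log2FC -0.18 at day 7, -0.30 in iPSCs and -0.23 in ESCs. Of 15 genes for eIF2 kinases, eIF2B and eIF2 phosphatases, 4 were lower and 1 higher at day 7 (median -0.046), 4 lower and 1 higher in iPSCs (median -0.10), and 1 lower and 1 higher in ESCs (median -0.011). Eif2ak4, which encodes the amino acid sensor GCN2, had log2FC -0.25 at day 7. Of 10 NRF2 targets, which act against oxidants, 1 were higher and 1 lower at day 7 (median -0.0096), 1 higher and 2 lower in iPSCs (median -0.23), and 0 higher and 0 lower in ESCs (median -0.15). Of 10 p53 targets, 0 were higher and 3 lower at day 7 (median -0.12), 2 higher and 0 lower in iPSCs (median 0.10), and 0 higher and 0 lower in ESCs (median -0.019). Of 8 hypoxia genes, 3 were higher and 2 lower at day 7 (median 0.40), 2 higher and 0 lower in iPSCs (median 0.26), and 1 higher and 1 lower in ESCs (median -0.10). Of 14 other serine, glycine and one-carbon enzymes, 5 were higher and 3 lower at day 7 (median 0.036), 1 higher and 5 lower in iPSCs (median -0.17), and 1 higher and 2 lower in ESCs (median -0.064). The median over all genes was -0.044 at day 7, 0.024 in iPSCs and 0 in ESCs.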

How the data were processed

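Messenger RNA was sequenced from 36 libraries (12 groups of 3), grouped by the sample titles. The deposited counts were whole-number read counts per gene that the authors obtained with Cutadapt, STAR on GRCm38 and Rsubread. The annotation release, tool versions and strand setting are not given in the sources used here. The deposited normalised signal was these counts divided by 1 size factor per library, and it differed from counts over DESeq2 median-ratio factors by a relative 6.9e-15 at most. Gene names came from the deposited comparison table for MEFs, whose fold changes and p-values were not used. The authors' log2-scale matrix was not used because it was corrected for preparation dates that the labels do not give.

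Differential expression was computed from counts with DESeq2 1.42.0 in R 4.3.3, with a single 12-level factor over all 36 libraries as in the study, the Wald test, independent filtering and unshrunken fold changes. FDR is the Benjamini-Hochberg value over all genes with one. Differences of KO effects were interaction contrasts of that fit, added after the data were examined. Alternatives were edgeR 4.0.16 (quasi-likelihood, TMM), TMM factors in DESeq2, a mean of at least 10 counts, only the 2 groups compared, leaving out each library, and the replicate number as a block. The fit was tested on simulated counts. Replicate pairs differed by at least 2.87 times the counting variance, so none was treated as a copy. A count of 0 allows up to 3 reads in a library, which covers counting error only. Positions and exons came from GENCODE M21 (GRCm38) and promoters from RefSeq (GRCm38.p6), and near-identical transcripts were searched with blastn at 97% identity.

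The genes, roles and lists were chosen with earlier results of these data known. Per KO comparison, values are given for the called genes of largest absolute log2FC, at most 6 with a mean of at least 10 normalised counts, or for the top 2 where none is called. Comparisons at day 7 and in clones were used in the choice and carry no FDR for single genes.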

Additional observations from a re-analysis of the deposited data

Results flagged for a closer look

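The mean level of the 35 genes moved in opposite directions at day 7 and in the clones, with every library of the KO group below WT at day 7 and above WT in iPSCs and ESCs. The KO effect on this mean level was -0.41 at day 7, 0.61 in iPSCs and 0.87 in ESCs on the log2 scale, so the effect in iPSCs exceeded that at day 7 by 1.02 and the effect in ESCs exceeded it by 1.28. These differences were not tested, and the genes were chosen by this pattern.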

How the results depend on the processing

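Single genes were recomputed under the alternatives for 135 results, which were the calls of the main fit and Cth and Ddit3 in MEFs. Of these 1485 values, 1357 kept direction and side of the threshold, 128 kept direction without the call and 0 changed sign. Other genes without a call were not recomputed one by one, so the lack of sign changes does not cover them. The number of the 35 genes called at day 3 (1) became 2 with only the libraries of the groups compared and 0 with edgeR, and leaving out single libraries gave 0 to 0. At day 5 (3) it was 1 with edgeR and 0 to 2 without single libraries, with 0 without D5 WT replicate 3 or D5 KO replicate 2. From day 3 to day 5 in WT (15) it was 25, and from day 5 to day 7 (8) it was 18, with only the libraries of the groups compared, and 11 to 14 and 2 to 7 without single libraries. The counts at day 7 (24), in iPSCs (19) and in ESCs (30) ranged over 17 to 22, 18 to 21 and 23 to 30 without single libraries, and those in MEFs (0) and from MEFs to day 3 in WT (33) over 0 to 0 and 31 to 33. With the replicate number as a block 4 genes were called at day 5, 27 at day 7, 31 in ESCs and 9 from day 5 to day 7 in WT. Same-numbered WT and KO libraries had correlations of their deviations of 0.29, 0.075 and 0.14 at day 3, 0.17, 0.059 and 0.13 at day 5, 0.23, 0.084 and 0.23 at day 7, -0.12, 0.0038 and 0.22 in iPSCs and -0.037 to 0.024 in MEFs and ESCs. At days 5 and 7 each library correlated best with its own number, a hint from the data that the numbers may be shared there, but no stage had all 3 values over 0.1 and the labels name no shared origin, so the samples were not treated as paired. The block changed no other count. The cause of these changes was not tested. Genes with few counts, such as Slc7a11 in pluripotent cells and Cbs up to day 7, are the least precise at this depth.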
